A study of Mus musculus with 4 samples.

Results

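The collagen genes of the mouse were taken as every row of the deposited read table whose gene name consists of Col, digits, the letter a and digits, as in Col1a1. This gave 41 of 29595 rows. Of the 41, 31 were among the 16128 rows with enough reads to be tested, and 10 were not. Behind the table are RNA-seq libraries of right ventricles from 4 adult mice of mixed C57BL/6 background, 2 of them labelled Ezh2-deficient and 2 labelled wild type. They are called mutant 1, mutant 3, wild type 1 and wild type 2, by the labels' numbers, and 4 values listed together stand in that order. Ezh2 is the histone methyltransferase of Polycomb repressive complex 2, which keeps genes silent. The labels give neither the Ezh2 allele nor the cells in which it acts, nor the sex of the animals or their age beyond adult.

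Collagens are the main structural proteins of the extracellular matrix. Their alpha chains wind together into a triple helix, which needs glycine at regular steps of the chain. Fibrillar collagens form the fibres that carry load between heart muscle cells, network collagens form sheets such as the basement membrane around muscle cells and capillaries, type VI forms beaded filaments next to cells, and fibril-associated collagens bind to the surface of fibres. In the heart, fibroblasts are the main source of types I and III, and excess of these types is the hallmark of fibrosis. The 41 rows held 11 fibrillar, 9 network, 4 beaded-filament and 9 fibril-associated genes, and 8 others that comprise the multiplexins Col15a1 and Col18a1, the anchoring-fibril gene Col7a1, the membrane collagens and Col28a1.

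The genes differ in the stretch of promoter sequence in front of them. Windows of 300 bases, 250 before and 50 after an annotated start, came from RefSeq on GRCm38.p6 and matched 33 of the 41 genes, with 36 windows in all. The number of CpG dinucleotides, the sites of DNA methylation in mammals, had a median of 11.5 in these windows and of 7 in all 32851 windows of the table, whose quartiles were 3 and 20. As background, the complex that holds Ezh2 is found mostly at promoters rich in CpG. Neither its binding nor its histone mark was measured here. The 250 bases before the start, 5′ to 3′ with CpG in capitals, are shown for the fibrillar and beaded-filament genes with the most negative differences between the groups, Col3a1 (chr1:45311288-45311537, plus strand) and Col6a3 (chr1:90843972-90844221, minus strand), and for both chains of type VIII collagen, whose reads were higher in the mutants, Col8a1 (chr16:57754738-57754987, minus strand) and Col8a2 (chr4:126286544-126286793, plus strand).
Col3a1: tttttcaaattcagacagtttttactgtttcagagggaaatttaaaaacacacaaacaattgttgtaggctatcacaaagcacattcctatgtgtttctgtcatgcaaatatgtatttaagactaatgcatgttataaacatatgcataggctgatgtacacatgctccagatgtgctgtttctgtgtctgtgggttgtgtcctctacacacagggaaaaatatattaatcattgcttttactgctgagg
Col6a3: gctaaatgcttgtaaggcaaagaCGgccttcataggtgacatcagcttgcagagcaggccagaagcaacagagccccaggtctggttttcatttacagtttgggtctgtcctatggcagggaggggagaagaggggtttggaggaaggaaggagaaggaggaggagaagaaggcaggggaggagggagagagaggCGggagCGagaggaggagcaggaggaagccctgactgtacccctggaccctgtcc
Col8a1: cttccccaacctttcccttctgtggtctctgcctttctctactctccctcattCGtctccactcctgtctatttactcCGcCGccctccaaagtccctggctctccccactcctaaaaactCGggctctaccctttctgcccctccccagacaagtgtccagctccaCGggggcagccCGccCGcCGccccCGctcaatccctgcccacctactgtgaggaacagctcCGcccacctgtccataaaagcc
Col8a2: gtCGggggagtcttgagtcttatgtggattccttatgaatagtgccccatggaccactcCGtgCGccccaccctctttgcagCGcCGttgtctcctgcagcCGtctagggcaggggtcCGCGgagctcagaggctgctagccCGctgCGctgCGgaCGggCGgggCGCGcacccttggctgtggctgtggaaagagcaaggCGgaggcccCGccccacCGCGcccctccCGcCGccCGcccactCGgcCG
The Col3a1 stretch holds 0 CpG, that of Col6a3 holds 3, that of Col8a1 holds 10 and that of Col8a2 holds 24. Over the full windows the counts were 0, 3, 12 and 32. The order was not general, since the window of Col5a1, with fewer reads in both mutants, held 34 CpG. Those of Col15a1 and Col6a1, also lower in both mutants, held 8 and 3. Those of Col23a1, Col4a4, Col9a2 and Col20a1, higher in both, held 24, 14, 10 and 1. Col12a1 and Col4a3, higher in both mutants, and Col14a1, lower in both, had no window. A relation between CpG and the differences was not tested. The letters CCAAT were searched on both strands, as CCAAT and ATTGG. They were present in 12 of the 36 collagen windows (33.3%) and in 37.4% of all windows. The windows of Col3a1, Col6a3, Col8a1 and Col8a2 lacked them. They stood in the windows of Col4a1 and Col4a2, which overlap, face opposite ways and held 37 and 33 CpG.

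Each library held 18177642 to 23853394 reads in the table, of which mitochondrial rows took 34.7% to 47.3%. Reads of the Y-linked gene Ddx3y numbered 754 and 659 in the mutants versus 2 and 2 in wild type, so that the sexes of the animals followed the genotype and the 2 cannot be told apart in any value below. The cardiomyocyte markers summed to 41312 and 46709 CPM (reads scaled to library size) in the mutants versus 38271 and 36337 CPM in wild type. Both mutants thus lay above both wild types, but of the 7 markers 4 were higher and 3 lower in the mutants by the fitted difference. Myl2 had 16947, 18459, 10871 and 8436 CPM, and Myh6, on the other side, had 10780, 14172, 15092 and 15579 CPM. Fast skeletal muscle markers summed to 196 CPM in mutant 1 and to 3.52 to 4.14 CPM elsewhere, so results that turned without mutant 1 are marked below. Before sequencing, the libraries were treated with a duplex-specific nuclease that removes abundant species, so that levels of different genes are not proportional to their RNA. In bulk tissue, fewer cells of a type and less RNA per cell cannot be told apart.

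Collagen reads were a small share of each library. They made up 0.140% of the reads of mutant 1 (95% Clopper-Pearson interval 0.139 to 0.142) and 0.169% of those of mutant 3 (0.167 to 0.171). In wild type 1 the share was 0.288% (0.286 to 0.290) and in wild type 2 it was 0.212% (0.210 to 0.214). These intervals cover counting error only. Both mutants thus lay below both wild types. Of the reads outside mitochondrial rows, collagens took 0.235%, 0.321%, 0.441% and 0.360%, still with both mutants lowest. In CPM scaled by trimmed means of M values (TMM), which is used for all levels below, their sums were 1421, 2044, 2577 and 1939, and the groups overlapped. With 2 libraries against 2, an exact permutation test cannot give a two-sided p under 0.333, and none was run.

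Compared per kilobase of transcript, since longer transcripts give more reads, the basement membrane chains led the family. In the wild types Col4a1 stood at 77.3 ± 16.5 CPM per kilobase (SD, n = 2), Col4a2 at 57.7 ± 14.1 and Col3a1 at 51.7 ± 10.01. Col15a1, Col1a2, Col6a1, Col6a2 and Col1a1 followed at 33.0 ± 7.23, 31.6 ± 6.77, 31.4 ± 6.52, 30.0 ± 6.65 and 24.6 ± 7.32, and no neighbours among these 5 differed by more than their SD. Col5a1 came next at 7.99 ± 0.146. In the mutants Col4a1 (59.4 ± 18.8), Col4a2 (49.2 ± 15.0) and Col3a1 (30.3 ± 8.002) again came first, and Col8a1 stood above Col5a1, at 7.83 ± 0.496 against 4.82 ± 0.544, where the wild types had 3.36 ± 0.192 against 7.99 ± 0.146. The plot of levels by library shows the 27 collagens with a mean of at least 1 CPM.

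**Figure D1:**
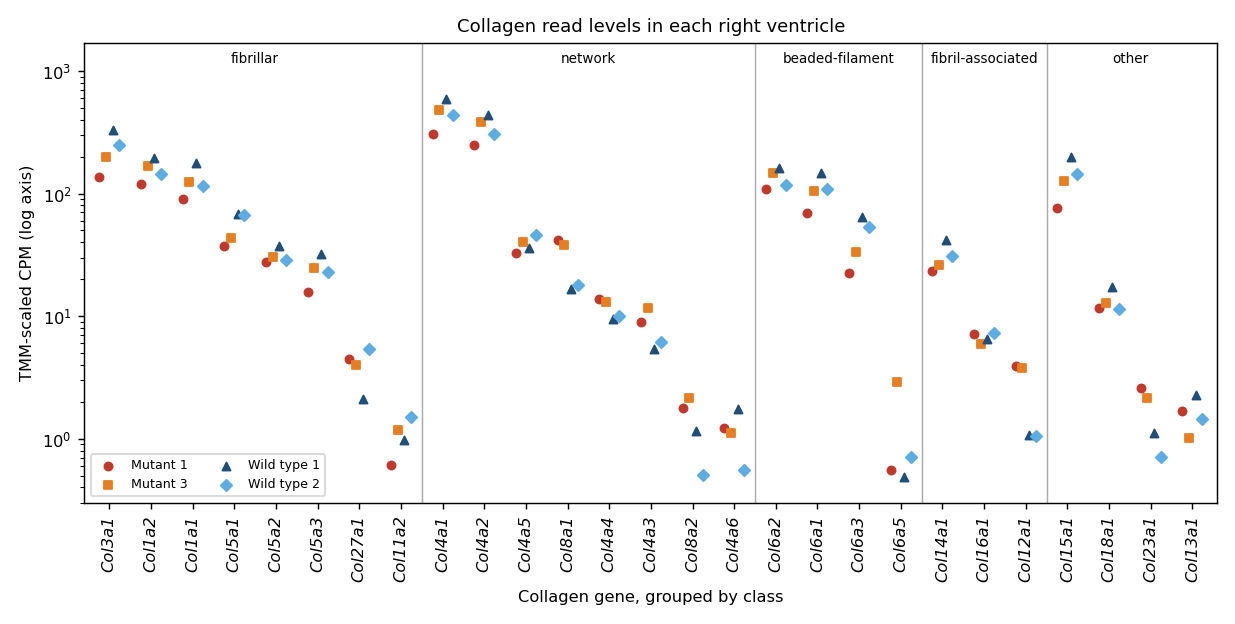
TMM-scaled CPM (log axis) of the 27 collagen genes with a mean of at least 1 CPM in each of the 4 right ventricles, grouped by class. Each point is 1 library. Among the abundant genes on the left of each class, mutant 1 (circles) is mostly the lowest and wild type 1 (triangles) mostly the highest, whereas Col8a1 and Col12a1 have both mutants above both wild types.

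None of the 31 tested collagens passed the test between mutants and wild types (edgeR quasi-likelihood test, Benjamini-Hochberg adjustment over all 16128 rows), against 0.13% of all rows. The adjusted p ran from 0.105 for Col8a1 to 0.997 for Col4a6. DESeq2 called 2 collagens, Col8a1 higher and Col6a3 lower, against 1.41% of all rows, and limma-voom called 0. At an unadjusted p under 0.05, 5 of the 31 were higher in the mutants, where 6.49% of all rows were, and 5 were lower, where 4.38% of all rows were. The 5 higher were Col12a1, Col8a1, Col4a3, Col23a1 and Col8a2, and the 5 lower were Col6a3, Col5a1, Col3a1, Col15a1 and Col14a1. Col4a4, Col20a1 and Col9a2 also had both mutants above both wild types, which made 8 in all, and Col6a1 brought those with both mutants below to 6. Such separation was near its background, since 45.2% of the tested collagens and 44.8% of all rows had it (all rows 22.3% above and 22.4% below).

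The log2 fold change, mutant minus wild type throughout, was negative in 18 of the 31 and positive in 13. Its median was -0.17, beside 0.0046 over all rows, of which 49.5% were negative. By class the median was -0.43 over 9 fibrillar genes (7 negative), 0.24 over 8 network genes (3 negative), -0.34 over 4 beaded-filament genes (3 negative), 0.47 over 5 fibril-associated genes (2 negative) and -0.24 over the 5 others (3 negative). These counts cover the genes that passed the filter on low reads and describe these libraries only. The direction of the fibrillar and beaded-filament medians was the same under every alternative run, but leaving out mutant 1 brought them to -0.070 and -0.065, and leaving out wild type 1 to -0.17 and -0.099. That of the network median turned to -0.044 with total-count scaling, which itself moved the median of all rows to -0.28, and that of the fibril-associated median turned to -0.066 when only genes with a mean of at least 1 CPM were kept.

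**Figure D2:**
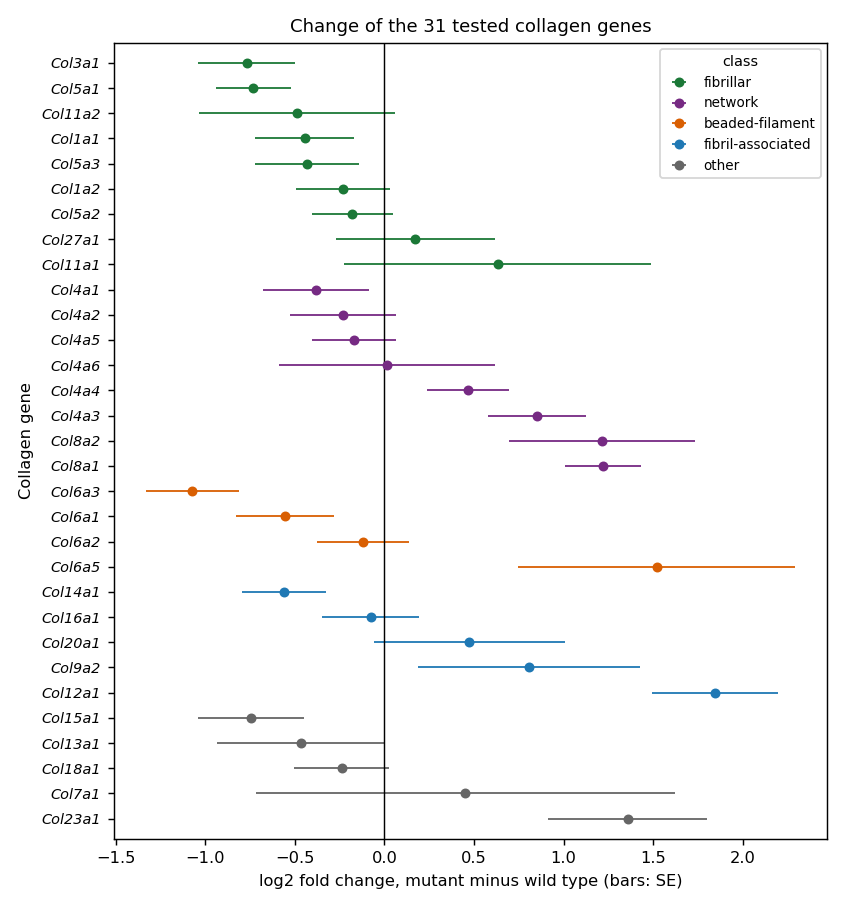
Log2 fold change (mutant minus wild type) of the 31 tested collagen genes with its SE as a bar, coloured by class and ordered within the class. Fibrillar genes lie mostly left of 0, network genes spread from -0.38 for Col4a1 to 1.22 for Col8a1. Col6a3 lies at -1.07 and Col12a1 at 1.85.

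Across the fibrillar class, reads of the major chains were lower in the mutants on average, though the groups mostly overlapped. Col3a1, the chain of type III collagen that gives the matrix its extensible fibres (chromosome 1, 45368491 to 45405865 on mm9), had 137, 200, 327 and 248 CPM. Both mutants lay below both wild types, with a log2 fold change of -0.77 ± 0.27 (SE, adjusted p = 0.367). Its row contains that of mKIAA4231 on the same strand, with 528, 553, 1185 and 903 reads in the same order, so reads may be split between them. Col1a1 (chromosome 11, 94797584 to 94813170), the major chain of type I collagen, had 90.9, 124, 177 and 115 CPM. Mutant 3 lay above wild type 2, and the log2 fold change was -0.45 ± 0.28 (adjusted p = 0.601). The Col1a1 value was -0.11 without wild type 1 and -0.21 with a correction for GC content and length. For its partner Col1a2 (chromosome 6, 4455697 to 4491543) the values were 119, 169, 195 and 144 CPM, with overlapping groups and a change of -0.23 ± 0.26 (adjusted p = 0.788) that turned to 0.039 without mutant 1 and to 0.0053 without wild type 1.

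Type V collagen sits inside type I fibres and limits their width. Its Col5a1 chain (chromosome 2, 27742205 to 27893044) stood at 37.2 and 43.7 CPM in the mutants versus 68.0 and 66.3 CPM in wild type, a log2 fold change of -0.73 ± 0.21 (adjusted p = 0.284). This was the fibrillar gene with the smallest SE. Its log2 fold change was -0.38 with a correction for GC content and length. Col5a2 had 27.6, 30.5, 37.0 and 28.7 CPM and Col5a3 had 15.8, 24.8, 31.8 and 22.8 CPM, and both overlapped between the groups. The other tested members were low. Col11a1, a cartilage-type fibrillar chain, had the most positive value of the class at 0.63 ± 0.86 on 8, 15, 3 and 12 reads, and turned to -0.10 without wild type 1. Col27a1 had 95, 78, 47 and 107 reads and Col11a2 had 13, 23, 22 and 30. Col2a1, the main cartilage collagen, had 2 reads in mutant 3 and 0 elsewhere, and Col24a1 had 3, 5, 0 and 0. No fold is given for these 2, which were not tested.

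The network collagens had values on both sides of 0, also within type IV. Col4a1 (chromosome 8, 11198431 to 11312730) and Col4a2 (chromosome 8, 11313024 to 11449215), which build the common basement membrane and lie 293 bases apart on opposite strands, had overlapping groups. Col4a1 had 305, 481, 589 and 434 CPM, a log2 fold change of -0.38 ± 0.30 (adjusted p = 0.676). Col4a2 had 249, 386, 437 and 308 CPM (-0.23 ± 0.30, adjusted p = 0.813), and its direction turned to 0.092 without mutant 1, 0.042 without wild type 1 and 0.039 with a correction for GC content and length. Col4a3 and Col4a4, chains of specialised basement membranes such as those of the kidney filter, lie 71 bases apart and were higher in both mutants. Col4a3 (chromosome 1, 82583496 to 82718634) had 8.96, 11.7, 5.34 and 6.09 CPM (0.85 ± 0.27, adjusted p = 0.329), and Col4a4 had 13.8, 13.1, 9.44 and 10.01 CPM (0.47 ± 0.23, adjusted p = 0.512). The span of Col4a3 overlaps an antisense row, AK043693, with 537, 521, 861 and 436 reads. Without a stated use of strand the reads of the 2 cannot be told apart. The third pair, Col4a5 and Col4a6 on chromosome X, had 32.4, 40.3, 35.9 and 45.9 CPM and 26, 22, 39 and 11 reads, with overlapping groups. The value of Col4a5 (-0.17 ± 0.23) turned without mutant 1 and with the GC and length correction, where Col4a1 was the only negative network gene.

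Type VIII collagen, best known from the hexagonal lattice behind the cornea, is also made around blood vessels. Both of its chains had more reads in both mutants. Col8a1 (chromosome 16, 57624369 to 57754850) stood at 41.8 and 38.2 CPM in the mutants versus 16.5 and 17.9 CPM in wild type. The libraries of a group lay close together, at 39.98 ± 2.53 against 17.2 ± 0.979 CPM (SD, n = 2), and the fitted difference was 2.33-fold (log2 1.22 ± 0.21, adjusted p = 0.105). It was positive under all 13 alternatives, from 0.94 to 1.32. Among those with all 4 libraries it passed with DESeq2, with no filter on low reads and with the GC and length correction. In the others with all 4 libraries it did not pass, with adjusted p up to 0.156 (edgeR, total-count scaling). A same-strand row at the start of the gene, AK051864, had 131, 90, 40 and 49 reads, more in both mutants as well. Col8a2 (chromosome 4, 125964038 to 125991574) was read far less, with 38 and 42 reads in the mutants versus 26 and 10 in wild type (1.21 ± 0.52, adjusted p = 0.453). Col10a1, the related collagen of growth plate cartilage, had 6, 7, 9 and 10 reads and was not tested.

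In type VI collagen, which anchors cells to the matrix, the 3 chains of the common trimer differed in the same direction but by unequal amounts. Col6a3 (chromosome 1, 92663435 to 92740349) had 22.5 and 33.4 CPM in the mutants versus 64.2 and 53.4 CPM in wild type, a 2.10-fold lower level (log2 -1.07 ± 0.26, adjusted p = 0.220). It was the most negative of all collagens and was negative under all 13 alternatives (-1.38 to -0.74). Among those with all 4 libraries it passed with DESeq2, with total-count scaling and with no filter on low reads. In the others with all 4 libraries it did not pass, with adjusted p up to 0.232 (edgeR, mean of at least 1 CPM). Without mutant 1 it was -0.78. Col6a1 (chromosome 10, 76171537 to 76188789) had 69.95, 106, 148 and 109.8 CPM (-0.55 ± 0.27, adjusted p = 0.517), with mutant 3 just under wild type 2. Col6a2 (chromosome 10, 76058507 to 76086059) had 109.7, 147, 161 and 118 CPM (-0.12 ± 0.26, adjusted p = 0.894), with overlapping groups and a direction that turned without mutant 1 (0.12), without wild type 1 (0.13) and with the GC and length correction (0.026). Col6a5, a chain that can take the place of Col6a3, had 57 reads in mutant 3 and 12, 11 and 14 in the other libraries. Its log2 value of 1.52 ± 0.77 therefore rests on mutant 3, and without that library it was -0.054.

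Fibril-associated genes held the largest positive value of the family. Col12a1 (chromosome 9, 79446798 to 79566485), which decorates type I fibres in tissues under load, had 84 and 74 reads in the mutants versus 24 and 21 in wild type, or 3.92, 3.75, 1.07 and 1.06 CPM. The groups did not overlap, at 3.84 ± 0.118 against 1.06 ± 0.00859 CPM (SD, n = 2), and the fitted difference was 3.60-fold (log2 1.85 ± 0.35, adjusted p = 0.138). It was positive under all 13 alternatives (1.56 to 2.03). Among those with all 4 libraries it passed with no filter on low reads and with the GC and length correction. In the others with all 4 libraries it did not pass, with adjusted p up to 0.177 (edgeR, without X, Y and abundant rows). Its close relative Col14a1 (chromosome 15, 55139306 to 55352356) lay on the other side, at 23.2 and 26.3 CPM in the mutants versus 41.8 and 31.1 CPM in wild type (-0.56 ± 0.24, adjusted p = 0.446). Col9a2 had 14, 23, 14 and 8 reads and Col20a1 had 18, 21, 16 and 13, and Col16a1 had overlapping groups at 7.09, 5.88, 6.46 and 7.24 CPM. Col9a1, Col9a3, Col19a1 and Col22a1 were not tested, with at most 6 reads in any library. The deposited row of Col22a1 spans 3.44 kilobases, less than its annotated transcript of 8.81 kilobases, so it covers a part of the gene.

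Among the other collagens, Col15a1 (chromosome 4, 47220884 to 47326037), a basement membrane multiplexin of muscle and vessels, had 76.9 and 127 CPM in the mutants versus 197 and 144 CPM in wild type (-0.75 ± 0.30, adjusted p = 0.422). Both mutants lay below both wild types. Its sister gene Col18a1 (chromosome 10, 76514924 to 76629246), the source of endostatin, had 11.6, 12.9, 17.4 and 11.5 CPM (-0.24 ± 0.27, adjusted p = 0.781), with overlapping groups and a value of 0.088 without wild type 1. Col23a1, a membrane collagen (chromosome 11, 51103422 to 51397427), had 55, 42, 25 and 14 reads, more in both mutants (1.36 ± 0.44, adjusted p = 0.342). Col13a1, another membrane collagen, had 36, 20, 51 and 29 reads and Col7a1 had 9, 13, 0 and 16, both with overlapping groups. Col28a1 (16, 10, 8 and 2 reads), Col17a1 (5, 4, 0 and 13) and Col25a1 (4, 5, 1 and 1) were not tested.

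Level and direction went together in the family. Of the 17 tested collagens with a mean of at least 10 CPM, a limit chosen after the values were seen, 15 had fewer reads in the mutants and the median log2 fold change was -0.38. Over the 7530 rows of that level 54.5% were negative, with a median of -0.04. The 2 positive ones were Col8a1 and Col4a4. Of the 14 collagens under 10 CPM, 11 were positive with a median of 0.55, where 45.2% of the rows of that level were negative and the median was 0.06. That median of all rows varied with level below 10 CPM. In narrower bins it was 0.25 around 0.52 CPM, 0.11 around 1.25 CPM and -0.026 around 8.0 CPM. Spearman's rho between the log2 fold change and the mean CPM was -0.593 over the 31 genes and -0.107 over all tested rows. These points share the same 4 libraries and are no independent replicates. The count for abundant genes depended on single libraries. It was 11 of 17 (median -0.10) without mutant 1, 10 of 17 (-0.15) without wild type 1, and 15 and 14 of 17 without mutant 3 and wild type 2. Of all rows of that level, 50.3%, 49.6%, 51.0% and 57.5% were negative in these settings, in the same order. With the GC and length correction it was 11 of 17 (-0.13), where 59.7% of all rows of that level were negative (median -0.075).

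Libraries of the same group also differed for these 17 genes. In 14 of them wild type 1 was above wild type 2, as in 63.9% of all rows of that level, and in 15 mutant 3 was above mutant 1, as in 51.6% of rows. In 13 of the 17 mutant 1 was the lowest library and wild type 1 the highest, an order found in 13.15% of rows. For Col1a1 the step from 90.9 CPM in mutant 1 to 124 in mutant 3, and that from 115 CPM in wild type 2 to 177 in wild type 1, each exceeded the distance between mutant 3 and wild type 2.

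**Figure D3:**
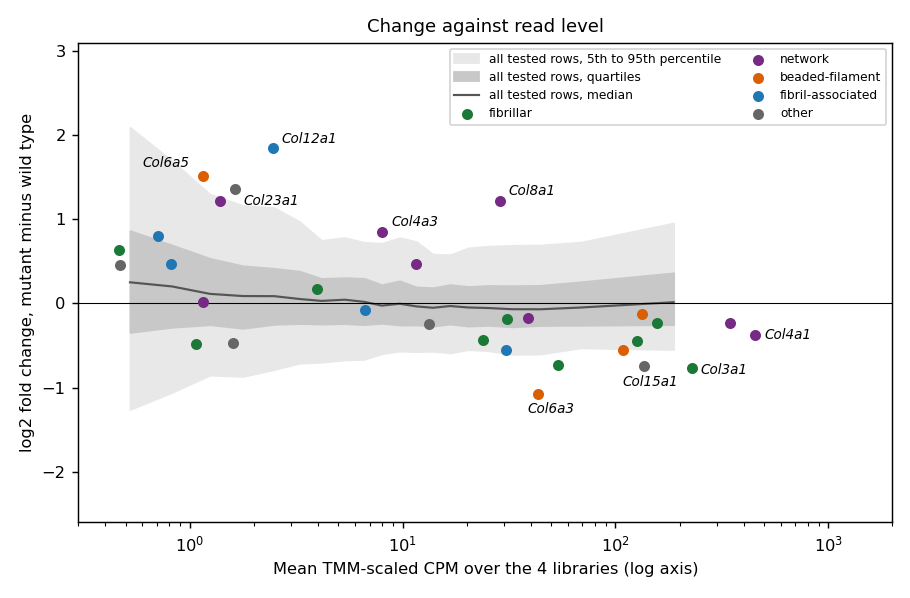
Log2 fold change (mutant minus wild type) of the 31 tested collagens against their mean TMM-scaled CPM over the 4 libraries (log axis), coloured by class. The grey line and bands are the median, quartiles and 5th to 95th percentiles of all 16128 tested rows in bins of level. Col8a1, Col12a1, Col4a3, Col23a1 and Col6a5 lie above the wide band and Col6a3, Col15a1, Col5a1 and Col6a1 below it. Col3a1, Col4a1 and Col4a2 lie to the right of the middle of the last bin, where the bands end. Of these, Col3a1 (-0.77) is under the 5th percentile of that bin (-0.55).

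Reads of chains of the same collagen type were also set against each other. The reads of one chain over those of its partner within a library do not depend on the scaling between libraries. In 5 of the 6 pairs examined the groups did not overlap, with both mutants below both wild types. Which group lies below depends on the chain written first, and Col6a3 was set over Col6a1. Of single rows, 44.8% had both mutants above or both below the wild types. Other pairs of genes were not examined, and 2 of the 5 pairs share Col6a1. The ratio of Col6a1 to Col6a2 was 0.638 (95% counting interval 0.597 to 0.681) in mutant 1 and 0.718 (0.678 to 0.759) in mutant 3, and 0.914 (0.872 to 0.959) and 0.933 (0.880 to 0.990) in the wild types. The ratio of Col6a3 to Col6a1 was 0.322 and 0.317 in the mutants versus 0.435 and 0.486 in wild type. For Col5a1 to Col5a2 it was 1.35 and 1.43 against 1.84 and 2.31. The differences between the groups in these 3 pairs were 1.37-fold, 1.44-fold and 1.48-fold, and in each the means of the groups differed by more than the SD within either group. With the GC and length correction the log2 difference of Col6a3 to Col6a1 went from -0.53 to -0.31. That of Col5a1 to Col5a2 went from -0.57 to -0.41, and that of Col6a1 to Col6a2 stayed at -0.45.

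The 2 pairs that form common type I and type IV trimers differed less. Col1a1 to Col1a2 was 0.763 and 0.732 in the mutants versus 0.908 and 0.804 in wild type, a 1.14-fold difference. Col4a1 to Col4a2 was 1.23 and 1.25 against 1.35 and 1.41, a 1.12-fold difference. The 2 chains of type VIII did not separate the groups, with Col8a1 to Col8a2 at 23.6 and 17.9 in the mutants versus 14.2 and 35.5 in wild type, where the low count of Col8a2 gave wide intervals (19.1 to 74.7 in wild type 2). The ratios were not tested.

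**Figure D4:**
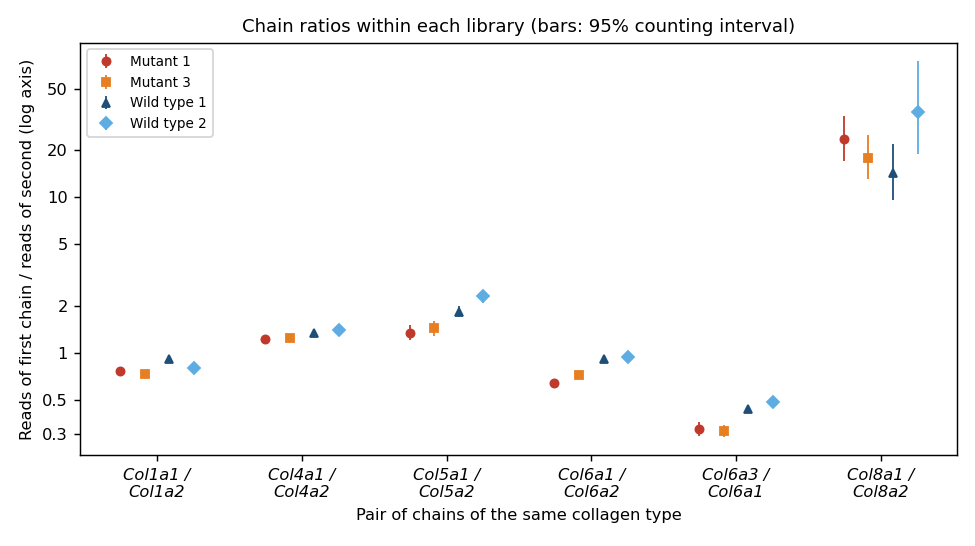
Reads of one chain divided by those of its partner in each of the 4 libraries (log axis), with 95% counting intervals as bars, for 6 pairs of chains of the same collagen type. In every pair but Col8a1/Col8a2 both mutants lie below both wild types.

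The classes differ in how the triple helix is coded. In the longest coding transcript of each gene (GENCODE M21, GRCm38), glycine codons at every 3rd codon were joined into stretches of at least 5. The longest unbroken stretch was 337 to 344 triplets in the fibrillar genes other than Col24a1 and Col27a1 (216 and 217), and 39 to 66 in the 6 type IV genes, whose repeats are broken into 22 to 27 stretches. It was 60 to 61 in type VIII and X, and 37 to 87 in type VI. The genes with the most positive and the most negative value, Col12a1 and Col6a3, share a long chain with little triple helix: repeats made up 8.22% of the codons of Col12a1 and 10.1% of those of Col6a3. Col14a1, with 14.02% and the same longest stretch of 32 triplets as Col12a1, lay on the other side from it.

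Genes that modify, fold, trim, cross-link or bind collagen were counted from a list of 42 rows, of which 38 were tested. None passed the test in either direction, and by unadjusted p under 0.05 the higher ones were 2 and the lower ones 1, where all rows had 6.49% and 4.38%. Over the 38 the median log2 fold change was -0.13 with 23 negative. Both higher genes are prolyl hydroxylases. Leprel1, which hydroxylates proline in collagen, had 4.01, 3.50, 1.47 and 0.805 CPM (1.71 ± 0.41, adjusted p = 0.216). P4ha1, the catalytic subunit of the hydroxylase that lets the helix become stable, had 33.0, 35.3, 25.3 and 18.9 CPM (0.63 ± 0.23, adjusted p = 0.390). The lower one was Loxl2, a cross-linking oxidase of the matrix, with 16.2, 13.7, 29.8 and 21.1 CPM (-0.77 ± 0.25, adjusted p = 0.347). Adamts14, a protease that trims procollagen, came next on that side with 8, 12, 18 and 36 reads (-1.40 ± 0.63, adjusted p = 0.477). By step, 5 of 11 tested hydroxylation genes were positive, as were 0 of 2 for glycosylation, 3 of 7 for chaperones and export, 2 of 6 for propeptide removal, 4 of 5 for cross-linking and 1 of 7 for receptors and uptake.

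No cell type marker passed the test (0 of 55 tested in 11 lists). By unadjusted p under 0.05, 14 markers were higher and 3 lower, where all rows had 6.49% and 4.38%, and 5 of the 14 were the fast skeletal muscle markers that stand out in mutant 1. The 3 lower ones were Acta2 (smooth muscle), Ryr2 (cardiomyocyte) and Upk3b (mesothelial). Fibroblast markers (8 of 8 tested, 6 positive) summed to 1459 and 1459 CPM in the mutants versus 1315 and 997 CPM in wild type. Most of that sum was Gsn, which other cells also make, and Dcn. Dcn had 416, 425, 291 and 279 CPM and Mfap5 had 37.4, 28.4, 23.5 and 16.05 CPM. In both genes both mutants lay above both wild types, and the unadjusted p was under 0.05. The 2 negative markers were Pdgfra, at 31.5, 27.6, 30.8 and 28.9 CPM, and Dpt, at 57.4, 63.2, 75.7 and 62.7 CPM. Smooth muscle and pericyte markers (8 of 8) summed to 375 and 425 against 368 and 388 CPM, and endothelial markers (8 of 8) to 517 and 656 against 660 and 583 CPM, both with overlapping groups. Of the smooth muscle and pericyte markers 5 were positive and 3 negative. Acta2 had 68.6, 66.5, 136 and 90.9 CPM, and Rgs5, on the other side, had 156, 174, 61.1 and 151 CPM. Macrophage markers (6 of 6) summed to 76.8 and 61.2 against 77.5 and 60.9 CPM, Schwann cell markers (3 of 4 tested) to 6.58 and 4.11 against 3.65 and 3.47 CPM, and mesothelial markers (4 of 4) to 6.63 and 6.59 against 7.39 and 9.26 CPM. Cartilage markers (2 of 5 rows tested) summed to 30.7 and 22.8 against 14.7 and 9.21 CPM. Most of that was Comp, also a protein of tendon and fibrotic matrix, at 24.9, 15.6, 7.44 and 3.82 CPM. Sox9, the other tested marker, had overlapping groups at 4.76, 5.93, 7.26 and 5.23 CPM. Matn1 had 0 reads in each library and Acan at most 14. Adipocyte markers (1 of 3 rows tested) summed to 322 and 462 against 133 and 274 CPM, nearly all from Fabp4, which capillary endothelium also makes, with Adipoq at 9, 8, 3 and 0 reads. Atrial markers (2 of 3 rows tested) summed to 86.8 and 69.1 against 34.2 and 2.92 CPM. The part of these lists in the collagen values was not tested.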

How the data were processed

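Right ventricles of 4 mice (2 Ezh2-deficient, 2 wild type, grouped by sample title) were sequenced from polyadenylated RNA after treatment with a duplex-specific nuclease, per the labels' protocols. TopHat 1.2.0 and Cufflinks were used with build mm9, per the submitters' processing notes. The sources used here do not give the counting rule, the use of strand or the annotation. Per the file headers, the deposited table gives raw read counts, which entered the tests. The authors' own normalised values in the table are CPM (difference at most 4.96e-06), and the authors' ratio and p-value for pairs of libraries were not used. Starts are counted from 0 in the table (37 of 38 mitochondrial rows match the annotation when counted from 1) and are printed from 1.

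The test was that of edgeR 4.0.16 in R 4.3.3: filterByExpr, TMM, the quasi-likelihood test with all 4 libraries and no covariate, two-sided, with Benjamini-Hochberg adjustment over 16128 rows and a call at an adjusted p under 0.05. The SE came from the quasi-likelihood F statistic. On simulated data, with the same dispersion in every row, 95.5% of 200 rows changed 4-fold among 16128 were recovered. The real rows differ in dispersion, so this checks the procedure and does not measure the power of the test here. The p-values measure the spread between these animals only. Alternatives were DESeq2 1.42.0, limma-voom (limma 3.58.1), other scalings and filters, rows without X, Y and those over 1% of a library, and each library left out. A correction for GC content and length (13017 rows) was chosen after seeing the data. Lengths and coding sequences came from GENCODE M21, and 41 of 41 collagens matched. Members and gene lists (assembly genes, and markers of 11 cell types) were chosen with earlier results of these data known. Genes named are 13 fixed collagens, per class the largest rise and fall and the 2 of smallest p, those whose groups do not overlap, and the 2 assembly genes of smallest p per direction. Others were named after their values were seen.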

Additional observations from a re-analysis of the deposited data

How the results depend on the processing

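No collagen passed the test in edgeR, nor with limma-voom, RLE scaling, a mean of at least 1 CPM, without X, Y and abundant rows, or on the rows with GC and length uncorrected. DESeq2 called 2 (Col8a1, Col6a3), total-count scaling 1 (Col6a3), no filter 3 (Col12a1, Col8a1, Col6a3) and the GC and length correction 2 (Col12a1, Col8a1), where 1.41%, 0.967%, 1.44% and 0.530% of all rows were called. Leaving out 1 library gave 0 to 12 calls: 0 without either mutant, 6 without wild type 1 and 12 without wild type 2, where 10.79% and 21.63% of all rows were called. The lone library of a group was there assumed to vary like the other group.

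With total-count scaling the medians were -0.47 for all collagens, -0.75 fibrillar, -0.044 network and 0.18 fibril-associated. With no filter they were -0.23 fibrillar, 0.0089 network and 0.71 fibril-associated. With the GC and length correction they were -0.16 fibrillar, 0.49 network and 0.62 fibril-associated, and the log2 ratio of Col6a3 to Col6a1 was -0.31. Without X, Y and abundant rows the network median was 0.63 and the fibril-associated median 0.44. With limma-voom the network median was 0.33, and with a mean of at least 1 CPM the fibril-associated median was -0.066. Leaving out 1 library gave medians of -0.33 to 0.0059 for all collagens, -0.64 to -0.070 fibrillar, 0.26 to 0.59 network and 0.33 to 0.67 fibril-associated, and the median of all collagens was positive without mutant 1. The log2 ratio of Col8a1 to Col8a2 then ran from -0.79 to 0.53, and it was positive without mutant 3 (0.067) and without wild type 2 (0.53).

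Directions were followed for the 13 fixed collagens and, per class, the largest rise and fall and the 2 of smallest p. Among these, those that turned when 1 library was left out were Col11a1 (-0.10 to 2.02), Col18a1 (-0.50 to 0.088), Col1a2 (-0.46 to 0.039), Col4a2 (-0.54 to 0.092), Col6a2 (-0.33 to 0.13) and Col6a5 (-0.054 to 2.30). With the GC and length correction Col4a2 (0.039) and Col6a2 (0.026) turned. The list does not cover the other collagens. Col4a5 turned without mutant 1 and with that correction, where Col4a1 (-0.050 and -0.13) was the only negative network gene, against 3 in the main test. The cause was not tested. Counting error limits the 14 tested collagens under 10 CPM most. No paired analysis was possible because the groups share only 1 replicate number, which is fewer than a block needs.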
